A study of Mus musculus with 10 samples.

Results

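Cadherins and protocadherins are the cell-surface adhesion proteins described here, in the ectoderm of mouse (Mus musculus) forelimb buds. The members were chosen by gene symbol alone (Cdh or Pcdh, any letters, then a number and at most a closing letter). The rule found 98 rows with 97 symbols among the 55401 genes of the count table, because Pcdha11 stands in it under 2 identifiers. By family they are 18 classical cadherins, 11 atypical cadherins and cadherin-related genes, 11 non-clustered protocadherins and 58 rows of clustered protocadherins (14 alpha, 22 beta and 22 gamma).

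RNA was sequenced at stage E9.75 (days of embryonic development) from 3 libraries of embryos lacking both Sp8 and Sp6, a pair of zinc finger transcription factors (double knockout, DKO), and 3 libraries of wild-type (WT) littermates. The ectoderm, the epithelial sheet over the bud, was peeled off with forceps after trypsin, and each replicate took about 2 buds. The labels give neither the alleles nor the strain, and they do not tie libraries to embryos or litters, so the p-values rest on the variation among these 6 libraries, which may be technical. Libraries are named by group and the number in their column: DKO 17, DKO 40, DKO 41, WT 32, WT 53 and WT 56. Totals ran from 64432348 to 87040786 counts. Levels are CPM, the count of a gene as a share of its library total, scaled by TMM, and are given as mean ± SD of each group. Log2 fold changes are DKO minus WT, and a gene was called at an edgeR adjusted p under 0.05.

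The labels were checked on the targeted genes and on the ridge signal Fgf8. Sp8 was at 3.68 ± 1.90 CPM in DKO and 36.2 ± 6.22 in WT (SD, n = 3 each). Sp6 was at 74.7 ± 59.7 CPM in DKO and 286.7 ± 50.6 in WT, lower in each DKO library, but not called (edgeR adjusted p = 0.207). Fgf8 was at 4.91 ± 7.48 and 1258.4 ± 111.6 CPM. The summed level of 13 surface ectoderm markers was 2566 to 3387 CPM in DKO and 3876 to 4134 CPM in WT. The sum of 12 limb and flank mesenchyme markers was 238.2 to 524.0 CPM in DKO and 392.9 to 436.4 in WT, and that of 9 erythroid genes 26.5 to 887.2 CPM in DKO (highest in DKO 41) and 0.590 to 299.3 in WT. Endothelial markers (10 genes) summed to 5.47 to 14.1 CPM in DKO and 2.03 to 3.35 CPM in WT. Most of the DKO sum was Sox17 and Plvap, with means of 4.65 and 4.08 CPM in DKO and 0.196 and 1.57 in WT. The means of Esam, Tie1 and Emcn were lower in DKO. A library of pooled tissue cannot tell fewer cells of a type from less RNA per cell.

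Classical cadherins hold cells together by binding the same cadherin on a neighbouring cell in the presence of calcium, and anchor to actin through beta-catenin, alpha-catenin and p120-catenin. Epithelia are best known for E-cadherin (Cdh1) and P-cadherin (Cdh3), while N-cadherin (Cdh2) is best known from mesenchyme, nerve and heart. Non-clustered protocadherins adhere more weakly and act in cell sorting and signalling. The clustered protocadherins lie in tandem arrays from which single cells, above all neurons, choose a few isoforms. In the alpha and gamma arrays each variable first exon is joined to shared constant exons.

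Promoters are shown for Pcdh19, Cdh6 and Pcdh8, called members that were lower in DKO and whose windows were taken from the RefSeq table (build GRCm38.p6). Each is the 250 bases before the annotated start, 5′ to 3′ on the strand of the gene. Capitals mark the cores of the boxes that SP and KLF factors are known to bind: the GC box, GGGCGG or CCGCCC on the other strand, and the GT box, GGGTGG or CCACCC. The Pcdh19 window lies at chrX:133688994-133689243, that of Cdh6 at chr15:13173676-13173925 and that of Pcdh8 at chr14:79771313-79771562, each on the minus strand.
Pcdh19: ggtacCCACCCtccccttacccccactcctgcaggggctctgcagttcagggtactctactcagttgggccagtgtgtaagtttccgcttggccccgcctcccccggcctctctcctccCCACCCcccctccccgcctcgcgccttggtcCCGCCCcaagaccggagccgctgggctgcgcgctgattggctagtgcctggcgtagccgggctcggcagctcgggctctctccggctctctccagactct
Cdh6: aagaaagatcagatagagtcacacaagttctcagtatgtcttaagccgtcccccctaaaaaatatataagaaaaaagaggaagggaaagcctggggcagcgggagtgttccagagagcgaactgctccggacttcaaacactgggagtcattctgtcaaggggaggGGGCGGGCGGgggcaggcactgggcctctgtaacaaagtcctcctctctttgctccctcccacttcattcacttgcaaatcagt
Pcdh8: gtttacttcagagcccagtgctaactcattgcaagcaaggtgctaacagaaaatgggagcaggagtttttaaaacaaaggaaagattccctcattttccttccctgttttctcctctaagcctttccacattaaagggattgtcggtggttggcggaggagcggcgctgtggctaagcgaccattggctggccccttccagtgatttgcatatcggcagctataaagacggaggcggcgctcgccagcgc
The Pcdh19 window held 1 GC box core and 2 GT box cores. The Cdh6 window held 2 GC box cores that overlap each other, and 0 GT box cores, and the Pcdh8 window held neither. Of the called members that were higher, Cdh15 held 3 GC box cores and 0 GT box cores, and Cdhr1 held 0 and 1. A match is a description of the letters, not a binding site. Over 27025 promoter windows of the same length, 33.0% held a GC box core and 27.6% a GT box core. Among 18 tested members whose windows were read, 8 held the GC box core and 6 the GT box core.

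Of the 98 rows, 22 had 0 counts in each of the 6 libraries and 54 passed the filter on low counts. Among the 54, 5 were lower in DKO and 2 were higher, or 12.96% called. Over the 19126 genes tested the share called was 4.51%, with 2.81% lower and 1.70% higher. The median log2 fold change was -0.16 over the tested members and 0.03 over all genes tested. The DKO and WT libraries did not overlap for 14 of the 54 (12 lower, 2 higher), against 21.9% of all genes tested. Outside the clusters 7 of 25 tested members were called. Within the clusters it was 0 of 29 (edgeR; 3 at an unadjusted p under 0.05, and 1 by DESeq2). The number of members called was 2 without DKO 40, WT 32 or WT 56, 3 without WT 53, 4 without DKO 17 and 6 without DKO 41. Of those 6, 4 were among the 7 called with all libraries, and Cdh23 and Pcdh10 were the others. Cdh2 and Pcdh19 were called in the main test and in each of its 12 alternatives.

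**Figure D1:**
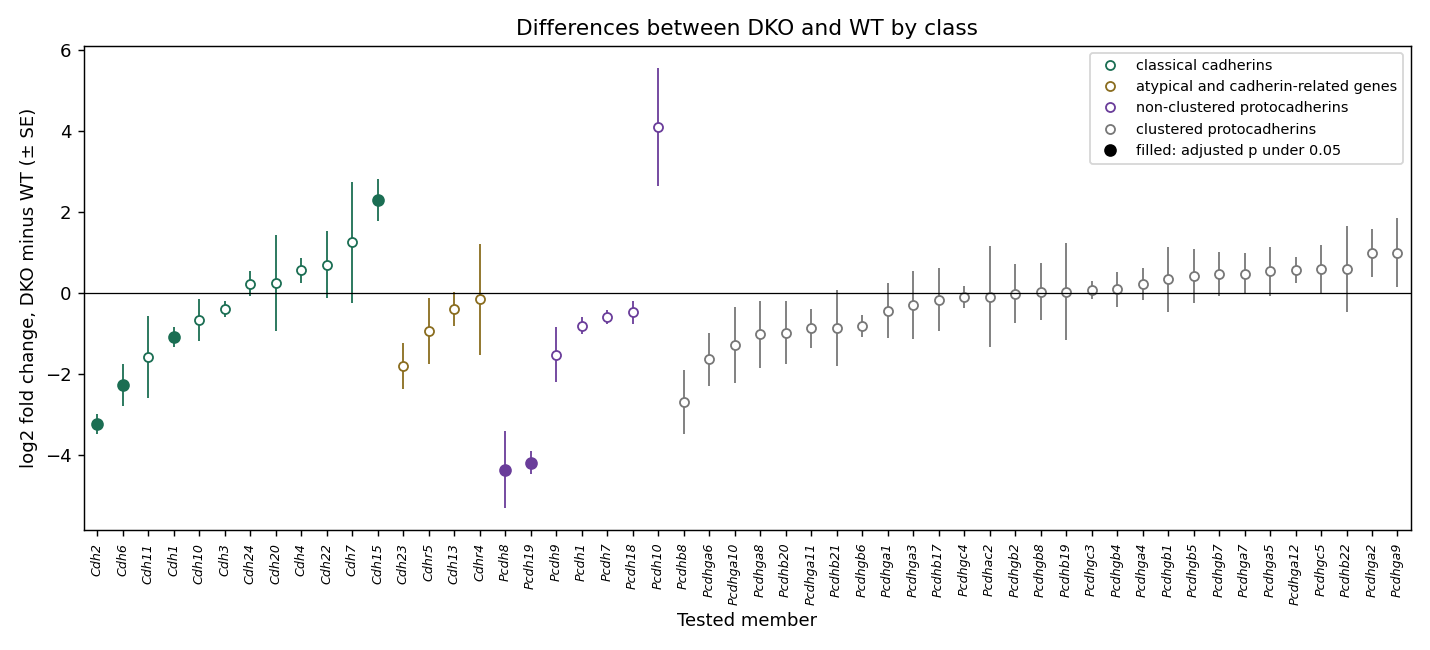
Log2 fold change (DKO minus WT, vertical axis) with its SE for the tested members, ordered within each class along the horizontal axis, with filled points for an edgeR adjusted p under 0.05. Cdhr1 and Cdh8 are left out because 1 group is at 0 counts. Filled points are Cdh2, Cdh6, Cdh1, Cdh15, Pcdh8 and Pcdh19, and the 29 clustered members are all open.

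In WT ectoderm the cadherin levels were led by Cdh3 and Cdh1. Levels of different genes were compared per kilobase of exon. Cdh3 stood at 80.6 ± 13.9 CPM per kb and Cdh1 at 61.8 ± 16.4 (SD, n = 3). Their ranges overlapped (71.0 to 96.5 and 47.0 to 79.4), although Cdh3 was the higher in each library. Pcdhgc3, the main gamma-protocadherin, was at 19.9 ± 3.78 CPM per kb, and Cdh2 and Pcdh18 followed at 6.18 ± 1.01 and 5.84 ± 1.68, which do not differ beyond their spread. Below them were Pcdh7 (4.33 ± 0.672), Pcdh1 (3.44 ± 0.582), Cdh6 (3.22 ± 0.494) and Pcdhgc4 (2.61 ± 0.450 CPM per kb), each with a range over the WT libraries that overlaps that of the next. In DKO, Cdh3 was at 61.1 ± 15.7 CPM per kb and Cdh1 at 29.1 ± 9.30, with no overlap. There Cdh2 and Cdh6 were at 0.658 ± 0.196 and 0.663 ± 0.586 CPM per kb, below Pcdh18, Pcdh7, Pcdh1 and Pcdhgc4.

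**Figure D2:**
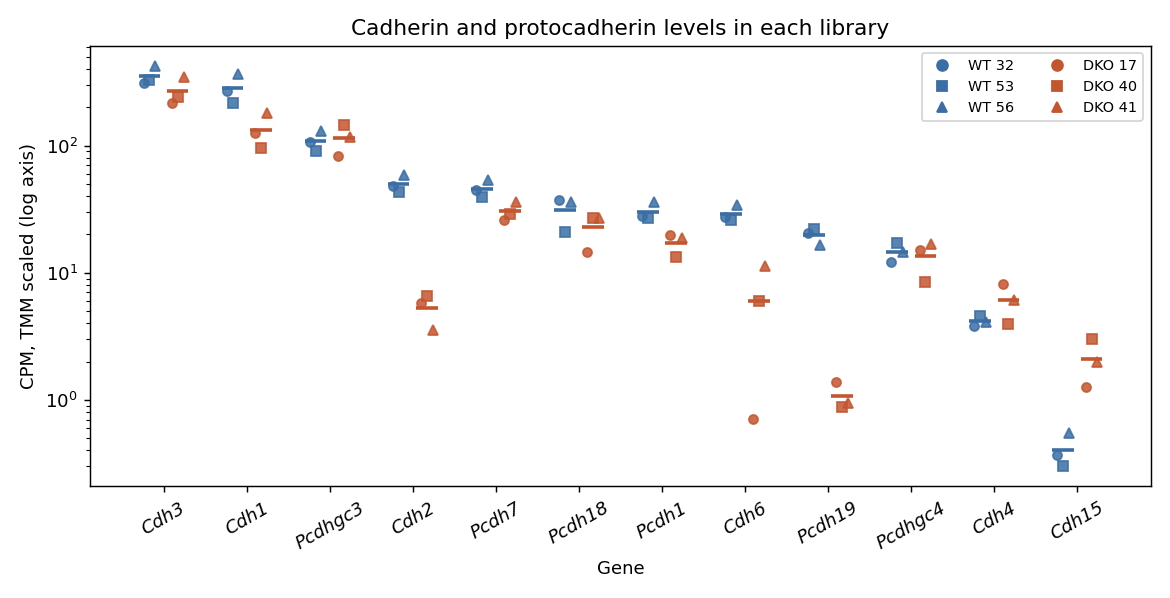
Level in CPM (log axis) of 12 members in each library, with WT in blue, DKO in orange, a marker shape per library and a bar at each group mean. For Cdh2 the DKO libraries lie between 3.54 and 6.58 CPM and the WT libraries between 42.9 and 58.8. For Pcdh19 they lie between 0.875 and 1.39 and between 16.5 and 22.1.

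N-cadherin (Cdh2, ENSMUSG00000024304.14, GRCm38 chromosome 18, 16588877 to 16809246) had the largest fold fall of the called classical cadherins. It read 47.7, 42.9 and 58.8 CPM in WT 32, WT 53 and WT 56, and 5.81, 6.58 and 3.54 CPM in DKO 17, DKO 40 and DKO 41. Every DKO library was well below every WT library. The means were 49.8 ± 8.16 CPM in WT and 5.31 ± 1.58 in DKO (SD, n = 3 each), a 9.38-fold fall. On the log2 scale this is -3.25 (SE 0.241, edgeR adjusted p = 0.000311), and -3.42 to -3.02 with each library left out. Genes of limb and flank mesenchyme did not move as 1 list. Of the 12, 5 had a negative and 7 a positive log2 fold change. The receptor Pdgfra alone was called, and was lower (8.33%, beside the 4.51% of all genes tested). Pdgfra read 67.8, 37.4 and 94.5 CPM in WT 32, WT 53 and WT 56. In DKO 17, DKO 40 and DKO 41 it read 2.57, 10.1 and 10.3 CPM. Prrx1, a transcription factor of limb mesenchyme, read 29.0, 1.61 and 0.412 CPM in WT 32, WT 53 and WT 56. In DKO 17, DKO 40 and DKO 41 it read 3.50, 23.3 and 12.8 CPM, and it was not called. The groups did not overlap for 5 of the 12 (41.7%, beside 21.9% of all genes tested). Of these, 2 were lower (Pdgfra and Col1a2) and 3 higher (Prrx2, Twist1 and Twist2). Without WT 32 and DKO 41 together the log2 fold change of Cdh2 was -3.08. The 12 markers of the apical ectodermal ridge, the signalling epithelium at the bud margin, summed to 2336 to 2858 CPM in WT and 442.9 to 685.6 in DKO, with 7 called lower (58.3%, beside the 4.51% of all genes tested). Fgf8 alone had a mean of 1258.4 CPM in WT and 4.91 in DKO. Of these 12, 9 had a negative and 3 a positive log2 fold change. The 9 neural crest and neuron genes summed to 80.4 to 123.2 CPM in WT and 24.6 to 48.3 in DKO, with Foxd3 at 0 counts in all 6 libraries. That lower sum is Tubb3, which had a mean of 91.3 CPM in WT and 2.22 in DKO. In the same list Ngfr and Stmn2 were called higher (log2 fold changes 2.18 and 6.14), and the median over its 6 tested genes was 1.37. With Tubb3, called lower, 50% of the 6 were called, beside the 4.51% of all genes tested. The part of any of these cells in the falls of Cdh2, Cdh6, Pcdh19 and Pcdh8 was not tested. As a share of the summed reads of Cdh1 and Cdh2, Cdh2 held 13.9% to 16.6% in WT and 1.94% to 6.45% in DKO.

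E-cadherin (Cdh1, ENSMUSG00000000303.12, chromosome 8, 106603351 to 106670246), the adhesion receptor that defines epithelial junctions, was lower in each DKO library, by a smaller fold. The WT libraries read 270.2, 215.1 and 363.1 CPM in WT 32, WT 53 and WT 56. DKO 17, DKO 40 and DKO 41 read 124.5, 95.5 and 179.2 CPM, all below the lowest WT library. The fall was 2.13-fold (282.8 ± 74.8 to 133.1 ± 42.5 CPM), with a log2 fold change of -1.09 (SE 0.249, edgeR adjusted p = 0.0437). The call was lost without DKO 17, DKO 40, WT 32 or WT 56 (adjusted p up to 0.171), and the log2 fold change ran from -1.37 to -0.88 with each library left out. The surface ectoderm markers, whose sums are given above, were also lower in DKO. Of the 13, Epcam and Perp were called lower and Krt8 higher (23.1%, beside the 4.51% of all genes tested). Their part in the fall of Cdh1 was not tested.

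P-cadherin (Cdh3, ENSMUSG00000061048.8, chromosome 8, 106510891 to 106557297), the other epithelial classical cadherin, lies 46053 bases upstream of Cdh1 on the same strand. It read 311.4, 325.4 and 423.2 CPM in WT 32, WT 53 and WT 56 and 218.0, 239.3 and 346.5 CPM in DKO 17, DKO 40 and DKO 41. DKO 41 lay above WT 32 and WT 53, so the groups overlap. Cdh3 was not called (log2 fold change -0.40, SE 0.190, edgeR adjusted p = 0.316). The ratio of Cdh1 to Cdh3 counts, looked at after these values were seen, was 0.868, 0.661 and 0.858 in WT 32, WT 53 and WT 56. In DKO 17, DKO 40 and DKO 41 it was 0.571, 0.399 and 0.517. R-cadherin (Cdh4), of the same subfamily, measured 4.15 ± 0.383 CPM in WT and 6.06 ± 2.07 in DKO (log2 fold change 0.57, adjusted p = 0.389).

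M-cadherin (Cdh15, ENSMUSG00000031962.6, chromosome 8, 122847966 to 122867397), known from skeletal muscle precursors, rose from a low level. It read 0.370, 0.300 and 0.549 CPM in WT 32, WT 53 and WT 56, and 1.26, 2.99 and 1.98 CPM in DKO 17, DKO 40 and DKO 41. Each DKO library was above each WT library. The increase was 5.11-fold (0.407 ± 0.128 to 2.08 ± 0.870 CPM), with a log2 fold change of 2.30 (SE 0.525, edgeR adjusted p = 0.0425). Only without DKO 17 did the call hold with 1 library fewer. Without any other it was lost (adjusted p up to 0.179). Of 7 myogenic precursor genes, 0 were called, and Myog had 0 counts in all 6 libraries. Myod1 and Myf5 had 0 counts in the DKO libraries. Of the 4 tested, 1 had a negative and 3 a positive log2 fold change, with a median of 0.83. The highest was Pax7, at 2.59. Pax7 had 4, 46 and 28 counts in DKO 17, DKO 40 and DKO 41, and 12, 0 and 0 in WT 32, WT 53 and WT 56. The sum of the 7 was 35.2 to 42.9 CPM in DKO and 20.1 to 27.7 in WT, most of it Met, which epithelia also express. The 5 coelomic epithelium genes summed to 285.8 to 515.4 CPM in DKO and 142.3 to 165.2 in WT. Krt19 and Wt1 were called higher, 50% of the 4 tested, beside the 4.51% of all genes tested. Nearly all of that sum is Krt19 (510.4 of 515.4 CPM in DKO 17), and Msln was lower in each DKO library (log2 fold change -1.70, not called). The part of these cells in the rise of Cdh15 was not tested.

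Among the type II cadherins, which sort cells into groups in the embryo, K-cadherin (Cdh6, ENSMUSG00000039385.5, chromosome 15, 13028701 to 13173675) was the highest in WT per kilobase. Its WT libraries were close together, at 27.3, 25.8 and 34.2 CPM in WT 32, WT 53 and WT 56. The DKO libraries were lower but spread widely, at 0.708 in DKO 17, 5.96 in DKO 40 and 11.3 CPM in DKO 41. The mean fell 4.86-fold (29.1 ± 4.46 to 5.98 ± 5.29 CPM; log2 fold change -2.27, SE 0.520, edgeR adjusted p = 0.0439). The call was lost without DKO 40 or any 1 WT library (adjusted p up to 0.194), and by DESeq2 (adjusted p = 0.134). Without DKO 41 the log2 fold change was -3.18.

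OB-cadherin (Cdh11), best known from mesenchyme, was highest in WT 32. It read 14.9 CPM in WT 32 against 2.97 in WT 53 and 1.02 in WT 56, and 0.120, 2.99 and 3.35 CPM in DKO 17, DKO 40 and DKO 41. It was not called (log2 fold change -1.59, SE 1.02, edgeR adjusted p = 0.481), and the log2 fold change turned to 0.18 without WT 32. Prrx1, given above, was also highest in WT 32, and both genes had the same order over the WT libraries. Across the groups they differed. Cdh11 was nearly equal in DKO 40 and WT 53, where Prrx1 read 23.3 and 1.61 CPM. The part of mesenchyme cells in the level of Cdh11 was not tested. VE-cadherin (Cdh5), the defining cadherin of endothelium, had 0 counts in all 6 libraries, which allows at most 0.012 CPM over the DKO group and 0.0127 CPM over the WT group. So did Pcdh12, known from endothelium. Of the 13 type II cadherins 8 were tested, and 1 of them, Cdh6, was called (12.5%, beside the 4.51% of all genes tested).

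**Figure D3:**
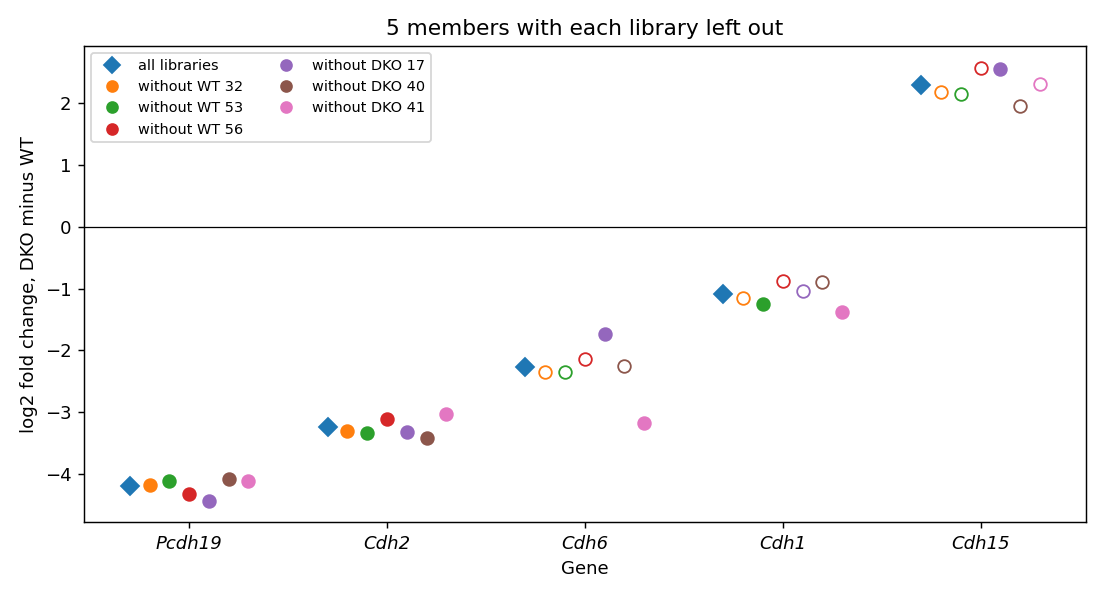
Log2 fold change (DKO minus WT) of 5 called members with all libraries (diamonds) and with each library left out in turn (circles), filled where the edgeR adjusted p is under 0.05. All points of Pcdh19 and Cdh2 are filled. Cdh6, Cdh1 and Cdh15 keep their direction with open points for 4, 4 and 5 of the 6 omissions.

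Of the 11 non-clustered protocadherins, 7 were tested and 2 were lower (28.6%, beside the 4.51% of all genes tested). These were Pcdh19 and Pcdh8, both of the delta-2 group, whose members signal to the actin cytoskeleton. Pcdh19 (ENSMUSG00000051323.16, chromosome X, 133582860 to 133688987), an adhesion partner of N-cadherin and a gene of human epilepsy, had the smallest adjusted p of all the members tested. It read 20.7, 22.1 and 16.5 CPM in WT 32, WT 53 and WT 56 and 1.39, 0.875 and 0.941 CPM in DKO 17, DKO 40 and DKO 41. The groups stood far apart and each was tight. The mean fell 18.5-fold (19.8 ± 2.90 to 1.07 ± 0.281 CPM), with a log2 fold change of -4.20 (SE 0.292, edgeR adjusted p = 0.000238), and of -4.43 to -4.08 with each library left out. A stretch of 57 bases of its exons overlaps a predicted gene, which this unstranded chemistry cannot separate.

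Pcdh8 (ENSMUSG00000036422.10, chromosome 14, 79766775 to 79771312), also called paraxial protocadherin or arcadlin, was low throughout. It had 67, 93 and 64 counts in WT 32, WT 53 and WT 56, or 0.775, 1.47 and 0.732 CPM. In DKO, 11 counts came from DKO 41 alone (0.123 CPM), and DKO 17 and DKO 40 had 0. The mean was 24.2-fold lower in DKO (log2 fold change -4.38, SE 0.950, edgeR adjusted p = 0.0260), and at least 52.9-fold lower without DKO 41. The call was lost with any 1 library left out (adjusted p between 0.0531 and 0.121). Of its exons 436 bases overlap a predicted gene.

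The more abundant non-clustered members had smaller fold changes. Pcdh1, an adhesion protein of airway epithelium, was at 27.8, 26.8 and 36.1 CPM in WT 32, WT 53 and WT 56 and at 19.9, 13.2 and 18.6 CPM in DKO 17, DKO 40 and DKO 41. The groups did not overlap, but Pcdh1 missed the threshold (log2 fold change -0.81, SE 0.206, edgeR adjusted p = 0.0639, and 0.00841 by DESeq2). Pcdh7, a delta-1 protocadherin first described in brain and heart, measured 45.9 ± 7.13 CPM in WT and 30.3 ± 5.03 in DKO, again with no overlap (log2 fold change -0.60, edgeR adjusted p = 0.0985, and 0.0324 by DESeq2). Exons of Pcdh7 overlap another gene by 2235 bases. Pcdh18, another delta-2 member, measured 31.4 ± 9.04 CPM in WT and 22.7 ± 7.17 in DKO, with overlap (log2 fold change -0.48, adjusted p = 0.438).

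Among the atypical and cadherin-related genes 5 of 11 were tested and 1 was called (20%, beside the 4.51% of all genes tested). Cdhr1 (ENSMUSG00000021803.10, chromosome 14, 37077857 to 37098347), a photoreceptor cadherin, had 0 counts in each WT library and 27, 15 and 20 counts in DKO 17, DKO 40 and DKO 41. That is 0.248 ± 0.0673 CPM in DKO, at least 19.6-fold higher (edgeR adjusted p = 0.0492). That bound drops to 12.5-fold if WT 32 is left out and to 12.4-fold if WT 56 is. The call was lost with any 1 library left out (adjusted p between 0.111 and 0.219). Cdh23, a hair cell tip-link cadherin, was at 2.26, 1.10 and 2.17 CPM in WT 32, WT 53 and WT 56 and at 0.180, 0.353 and 1.05 CPM in DKO 17, DKO 40 and DKO 41. The groups did not overlap, by a small margin, and Cdh23 was not called (log2 fold change -1.81, SE 0.563, edgeR adjusted p = 0.119) except without DKO 41 (log2 fold change -2.86, adjusted p = 0.0459).

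The clustered protocadherins were almost entirely those of the gamma array. Summed over its 22 genes, the gamma cluster was at 207.2, 158.8 and 212.4 CPM in WT 32, WT 53 and WT 56 and at 173.4, 209.2 and 219.7 CPM in DKO 17, DKO 40 and DKO 41. The groups overlap. The 22 beta genes summed to between 2.10 and 5.95 CPM in WT and between 0.528 and 6.59 in DKO. The alpha rows summed to at most 0.671 CPM in any library, and 11 of the 14 had 0 counts in all 6. When each array was added up to 1 row before the test, 0 of 3 were called (edgeR, 0 at an unadjusted p under 0.05), and the log2 fold change of the gamma row was 0.06 (SE 0.146, adjusted p = 0.886).

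Within the gamma array, the C-type isoform Pcdhgc3 gave 51.4% to 61.8% of the summed CPM in WT and 47.8% to 69.4% in DKO. Many cell types express it without the random choice of the A-type and B-type isoforms. It read 106.6, 90.0 and 131.3 CPM in WT 32, WT 53 and WT 56 and 82.8, 145.2 and 117.0 CPM in DKO 17, DKO 40 and DKO 41. Pcdhgc3 was not called (log2 fold change 0.07, SE 0.212, edgeR adjusted p = 0.904). Pcdhgc4, a C-type isoform known for its role in the survival of interneurons, measured 14.6 ± 2.52 CPM in WT and 13.4 ± 4.37 in DKO (log2 fold change -0.10, adjusted p = 0.891). The A-type or B-type isoform of highest level differed between libraries of a group. It was Pcdhga7 in WT 32 and DKO 17, Pcdhga11 in WT 53 and DKO 40, Pcdhgb6 in WT 56 and Pcdhgb7 in DKO 41. Between 11 and 18 gamma genes reached 1 CPM in the WT libraries, and between 13 and 19 in DKO. Pcdhga6 had the lowest log2 fold change of the gamma array, -1.65, with 1.68 ± 0.723 CPM in WT and 0.543 ± 0.493 in DKO, and was not called (edgeR adjusted p = 0.232). Its log2 fold change was -2.44 without DKO 41 and -1.06 without DKO 17. Each gamma row shares 2116 or more exon bases with other genes, mainly the 21 other gamma rows, so how shared reads were split among isoforms is uncertain.

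**Figure D4:**
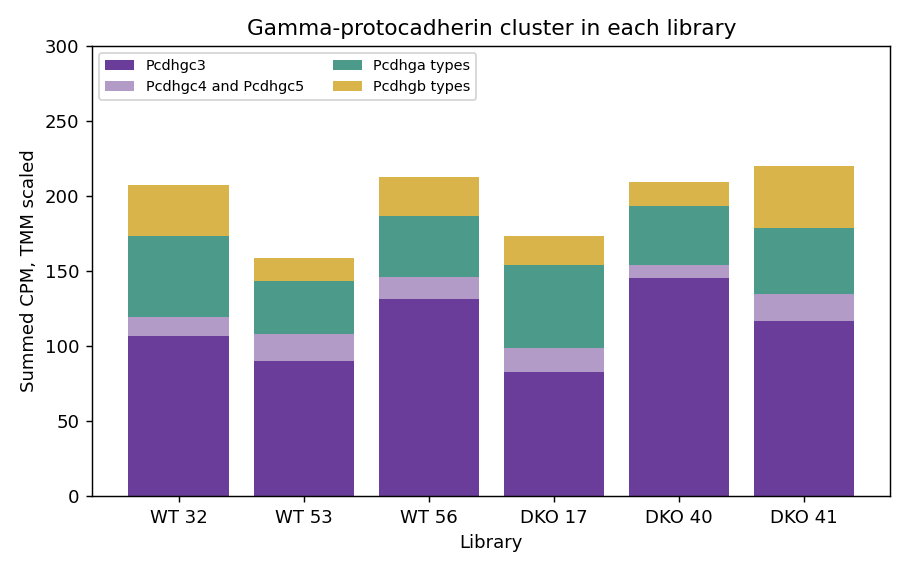
Summed CPM of the gamma-protocadherin cluster in each library, stacked by Pcdhgc3, the other C types, the A types (Pcdhga) and the B types (Pcdhgb). The bars run from 158.8 CPM in WT 53 to 219.7 in DKO 41, and Pcdhgc3 is the largest part of each.

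Of 23 adherens junction partners, the genes for proteins that cadherins bind or meet at the junction, 22 were tested, 2 were lower and 0 higher. That is 9.09%, beside the 4.51% of all genes tested, with a median log2 fold change of -0.19. Beta-catenin (Ctnnb1), which links cadherin tails to alpha-catenin, went from 1790 ± 197.1 to 1174 ± 212.8 CPM (log2 fold change -0.61, edgeR adjusted p = 0.0477). The nectin Nectin4, an immunoglobulin-type adhesion protein of the same junction, was 3.87-fold lower (56.4 ± 21.1 to 14.6 ± 10.3 CPM, adjusted p = 0.0425). Nectin4 lost its call without DKO 17, DKO 40, WT 32 or WT 56, and Ctnnb1 without any but DKO 41 (adjusted p up to 0.197). Without DKO 41 the log2 fold change of Nectin4 was -2.72 (from -1.94). Alpha-catenin (Ctnna1), p120-catenin (Ctnnd1) and plakoglobin (Jup) had log2 fold changes of -0.25, 0.01 and -0.23 and were not called.

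Of 22 other genes of the cadherin superfamily 17 were tested, 3 were lower and 1 was higher. That is 23.5%, beside the 4.51% of all genes tested. The planar polarity cadherin Celsr2 measured 30.5 ± 0.765 CPM in WT and 10.9 ± 3.93 in DKO (log2 fold change -1.47, edgeR adjusted p = 0.0125), and lost its call without WT 32 or WT 56. The desmosomal cadherins Dsc2 and Dsc3 were lower by log2 fold changes of -0.82 and -2.57 (adjusted p = 0.0312 and 0.0287). Dsc2 lost its call without DKO 17, DKO 40, WT 32 or WT 56, and Dsc3 without any but DKO 41. Ret, a receptor tyrosine kinase with cadherin-like domains, was higher (log2 fold change 5.995, adjusted p = 0.00466), called with each library left out, and at 5.31 without DKO 40 and 6.75 without WT 32.

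Of 19 transcription factors and splicing factors known to act on Cdh1 or on its epithelial program, 1 was lower and 0 higher. That is 5.26%, close to the 4.51% of all genes tested. Esrp2, a splicing regulator of epithelial cells, measured 101.7 ± 36.3 CPM in WT and 38.5 ± 16.9 in DKO (edgeR adjusted p = 0.0478), with the call lost without DKO 17, DKO 40, WT 32 or WT 56. The repressors Snai1, Snai2, Zeb1 and Zeb2 were not called, at log2 fold changes of 1.64, -0.19, -0.46 and 0.05. Nor were the repressors Twist1 and Twist2, which were higher in each DKO library than in any WT library, at log2 fold changes of 2.14 and 3.32 (edgeR adjusted p = 0.135 and 0.0780). Both are also in the list of limb and flank mesenchyme markers. Of the 19 genes, the groups did not overlap for 9 (47.4%, beside 21.9% of all genes tested), with 7 lower and 2 higher. The 7 were Esrp2, Esrp1, Grhl3, Grhl1, Ovol1, Tcf3 and Tcf4, of which only Esrp2 was called. Grhl3, Grhl1 and Ovol1 had log2 fold changes of -2.08, -1.40 and -1.13. Those of Esrp1, Tcf3 and Tcf4 were -0.43, -0.22 and -0.20. DESeq2 called 5 of the 18 genes of the list that it tested, 3 lower and 2 higher. Over all genes it called 1738 of 20940. Of 13 genes of cadherin shedding and turnover 12 were tested, and 2 were lower (16.7%, beside the 4.51% of all genes tested). Adam10, the protease that sheds E- and N-cadherin, had a log2 fold change of -0.84 (adjusted p = 0.0249), lost without DKO 40, DKO 41, WT 32 or WT 56. The proprotein convertase Pcsk6 had one of -1.56 (adjusted p = 0.0195), lost without DKO 40, WT 32 or WT 56. Of 16 regulators of the protocadherin arrays, among them Ctcf, Rad21 and Smchd1, 0 were called (edgeR; 2 at an unadjusted p under 0.05).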

How the data were processed

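The values used are raw counts of reads per gene, deposited by the authors for 6 libraries. The other groups of the labels, at E10.5, were not analysed here. Tools named, per the submitters' processing notes, include HISAT2, StringTie, Cufflinks, fastp, FastQC and DESeq2, with builds GRCm38 and mm10. Which tool counted the reads is not given in the sources used here. Per the labels' protocols, libraries were made with SMART-Seq v4 and Nextera XT, which mark neither strand nor molecule, so floors (3 counts over a group) cover counting error only. More genes had a count of 1 than of 2 in every library (DKO 17 had 1490 and 617). Each pair of libraries differed by more than sampling noise (chi-square per degree of freedom 50.2 or more).

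Counts were tested with edgeR 4.0.16 in R 4.3.3 (filterByExpr, TMM, glmQLFit with robust=TRUE and legacy=FALSE, quasi-likelihood F test, group only), and p-values were adjusted by Benjamini-Hochberg over all 19126 genes that passed. An SE is the fitted log2 change over the root of its F statistic. DESeq2 1.42.0 was an alternative. The script was tested on simulated data. Positions, exon lengths and overlaps came from GENCODE M21 (GRCm38), which matched 99.53% of identifiers. Promoter sequences came from RefSeq GRCm38.p6, for members off chromosome 18 (18 of the 23 tested had an entry).

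The members, lists and tests were chosen with earlier results of these data known. Named members are the called ones, Cdh1 to Cdh6 and Cdh11, the 10 of highest mean CPM, and those of at least 1 CPM with separate groups and an absolute log2 fold change of 1 or more. In the pathway lists the called genes are named. Other genes named beside them were chosen after their values were seen.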

Additional observations from a re-analysis of the deposited data

How the results depend on the processing

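DESeq2 called 1738 genes in all (from 863), 1 clustered and 4 non-clustered protocadherins, 7 of the wider superfamily and 5 factors acting on Cdh1. With legacy=TRUE the counts were 546 in all, 2 members, 1 classical, 0 atypical, 1 non-clustered, 0 junction partners, 2 of the superfamily and 0 Cdh1 factors. With no filter they were 412, 2, 1, 0, 1, 0, 2 and 0 in that order, and 0 shedding genes. Without WT 32 and DKO 41 there were 377 in all, 2 members, 1 classical, 0 atypical, 1 non-clustered, 1 of the superfamily, 2 Cdh1 factors and 0 shedding genes. A filter of 1 CPM in 3 libraries gave 0 atypical, 1 junction partner and 0 Cdh1 factors, and size factors of the RLE kind gave 0 atypical and 0 Cdh1 factors. The settings also differ in how many genes were tested. The number was 19126 in the main test, 29852 with no filter, 14057 with the stricter filter and 20940 by DESeq2. It was 19117 without WT 32 and DKO 41, and 19910 to 20189 with 1 library left out. Otherwise the cause of the different numbers called was not tested.

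With each library left out, 247 to 918 genes were called in all. The ranges were 2 to 6 members, 1 to 3 classical, 0 to 1 atypical, 1 to 2 non-clustered and 0 to 0 clustered members. They were 0 to 3 junction partners, 1 to 4 of the superfamily, 0 to 4 Cdh1 factors, 0 to 2 shedding genes and 0 to 2 array regulators. The log2 fold change of Cdh11 turned without WT 32 (0.18, range with each library left out -2.13 to 0.18), that of Pcdhgc3 without DKO 40 (-0.13) or WT 53 (-0.05, range -0.13 to 0.26), and that of Pcdhgc4 without DKO 40 (0.13) or WT 53 (0.02, range -0.30 to 0.13); none of these was called. No paired analysis was possible because the library numbers in the count table do not occur among the replicate numbers given in the labels. The depth allows a level of at most 0.0127 CPM for a member at 0 counts over a group.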

Other observations

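A few members outside the naming rule had values that stand apart, and were chosen after those were seen. Cdh8, a type II cadherin of brain circuits, had 13, 57 and 133 counts in WT 32, WT 53 and WT 56 and 0 in each DKO library, at least 71.2-fold lower (between 43.6-fold and 100.6-fold with each library left out). It was not called by edgeR (adjusted p = 0.0983) and was by DESeq2 (adjusted p = 1.63e-05). Pcdh10, a delta-2 protocadherin, had 56, 162 and 4 counts in DKO 17, DKO 40 and DKO 41, and 12, 0 and 0 in WT 32, WT 53 and WT 56. The log2 fold change of Pcdh10 was 4.11 (edgeR adjusted p = 0.152), with 2.75 without DKO 40 and 4.70 without DKO 41 (adjusted p = 0.0381). Without WT 32 the WT group is at 0 counts. Pcdhb8 had the lowest log2 fold change of the tested clustered members (-2.70, SE 0.785, edgeR adjusted p = 0.0763, and -4.22 without DKO 41), with 43, 44 and 57 counts in WT 32, WT 53 and WT 56 and 0, 5 and 18 in DKO 17, DKO 40 and DKO 41.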
